A study of Homo sapiens with 9 samples.

Results

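Depletion of RNF40 by small interfering RNA (siRNA) was compared with a control siRNA across all genes in HCT116, an established human colon carcinoma cell line. The comparison rests on 6 of the 9 libraries of the study, 3 of siRNF40 and 3 of siControl, and all 17663 genes with a mean normalized read count of at least 10 were taken, out of 63677 genes in the deposited table. All cells carried the wild-type genotype, received siRNA with a lipid reagent and were harvested after 48 h, and polyadenylated RNA was sequenced. A further group of 3 libraries, siTG2, received siRNA against transglutaminase 2 and entered only the estimate of the spread between replicates. The labels do not state whether the replicates came from separate cultures, so every p-value below measures the spread between these samples, which may be technical. One siRNA reagent label stands for each group, and the siRNA sequences were not analysed here.

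RNF40 forms a ubiquitin ligase with RNF20. The pair attaches a single ubiquitin to histone H2B on transcribed genes, together with the conjugating enzymes UBE2A and UBE2B and the PAF1 complex that travels with RNA polymerase II. This mark helps the polymerase through nucleosomes and stimulates the enzymes that methylate histone H3 at lysines 4 and 79, SET1 with its subunit WDR82 and DOT1L. Specific deubiquitinating enzymes, among them USP22 and USP49, remove it.

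The 6 libraries held 29161285 to 35743918 reads assigned to genes, and 1 read equalled 0.925 to 1.1 units of the normalized count. Epithelial markers fitted the label: 9 of 10 reached a mean of 10, VIL1 being the exception, and their summed level was 101300 to 111000 in siControl and 148800 to 174900 in siRNF40. Markers of other cells were few. Of 7 fibroblast markers 2 reached 10, with DCN, LUM and COL1A2 at 0, and the sum of the 7 was 822.3 to 997.5 in siControl and 1372 to 1705 in siRNF40. Nearly all of that sum was COL1A1, with a mean of 1180 over the 6 libraries against 26.6 for PDGFRB. None of 6 leukocyte markers and none of 3 red cell markers reached 10, and VWF alone did so among the endothelial markers. In bulk RNA, fewer cells in a state and less RNA per cell cannot be told apart.

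Of the 17663 genes, 3825 (21.7%) were called higher and 4175 (23.6%) lower in siRNF40, at an adjusted p under 0.05 by limma with Benjamini-Hochberg adjustment over all of them. Among the 13678 protein-coding genes these shares were 24.2% and 28.3%, and their median log2 fold change was -0.015. A gene group is therefore read below against nearly 1 in 4 coding genes called in each direction. Fold changes are log2 differences of mean log2(normalized count + 1), siRNF40 minus siControl, with limma's standard error (SE). "Rose" and "fell" are used only of called genes.

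RNF40 itself (chromosome 16, 30773066 to 30787628, hg19) had normalized counts of 3004, 2784 and 2565 in siControl and 535, 497 and 528 in siRNF40. Every knockdown library lay far below every control library. The mean fell from 2784 ± 219 to 520 ± 20.6 (SD, n = 3), to 18.7% of the control level (log2 fold change -2.42, SE 0.085, adjusted p = 5.3e-13 by limma). By a two-sided exact permutation test of the 6 libraries p was 0.1, which is as low as 3 against 3 can go. Its partner RNF20 was measured at 1640, 1657 and 1536 in siControl and 1536, 1578 and 1389 in siRNF40, which overlap (log2 fold change -0.10, SE 0.081, adjusted p = 0.317 by limma).

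The wider machinery around H2B ubiquitin was described with a list of 40 tested genes that covers the ligase, the PAF1, FACT and elongation factors, the methyltransferase complexes and the deubiquitinases. RNF40 included, 6 rose and 14 fell, with a median of -0.126. The share that fell was 35.0%, against 28.3% of all coding genes, and RNF40, the siRNA target, is part of it. The share that rose was below the 24.2% of all coding genes. After correction for GC content, 5 of the 39 genes with a GC value were called higher and 12 lower (median -0.076). WDR82, which brings the SET1 methyltransferase to the polymerase, showed 8318, 8199 and 8144 counts in siControl and 2898, 2987 and 2819 in siRNF40. The groups were widely separated, and the drop to 35.3% of the control level was the list's steepest after RNF40. CDC73, a PAF1 complex subunit, fell from 3068, 2819 and 2970 to 1663, 1632 and 1292 (log2 fold change -0.96), and UBE2A fell from 2540, 2727 and 2541 to 1468, 1717 and 1619 (-0.70). The other PAF1 subunits moved less: LEO1 (-0.15) and RTF1 (-0.01) were not called, and the calls of CTR9 (-0.22) and PAF1 (0.25) ended after correction for GC content (-0.12 and 0.10). The CTR9 call also ended without siControl replicate 1 or 3 or siRNF40 replicate 1 or 3 (-0.17 to -0.22), and the PAF1 call without siControl replicate 1 (0.23) or siRNF40 replicate 3 (0.16). In the opposite direction, USP49 rose from 1140, 1089 and 1202 to 2145, 2268 and 2016 (0.91), and the H3 lysine 79 methyltransferase DOT1L rose from 1586, 1595 and 1514 to 2413, 2269 and 2515 (0.61). Small decreases were called for the FACT subunit SUPT16H (-0.46), USP7 (-0.44), WAC (-0.41) and the elongation kinase CDK12 (-0.40), while SSRP1, the other FACT subunit, was not called (0.04).

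**Figure D1:**
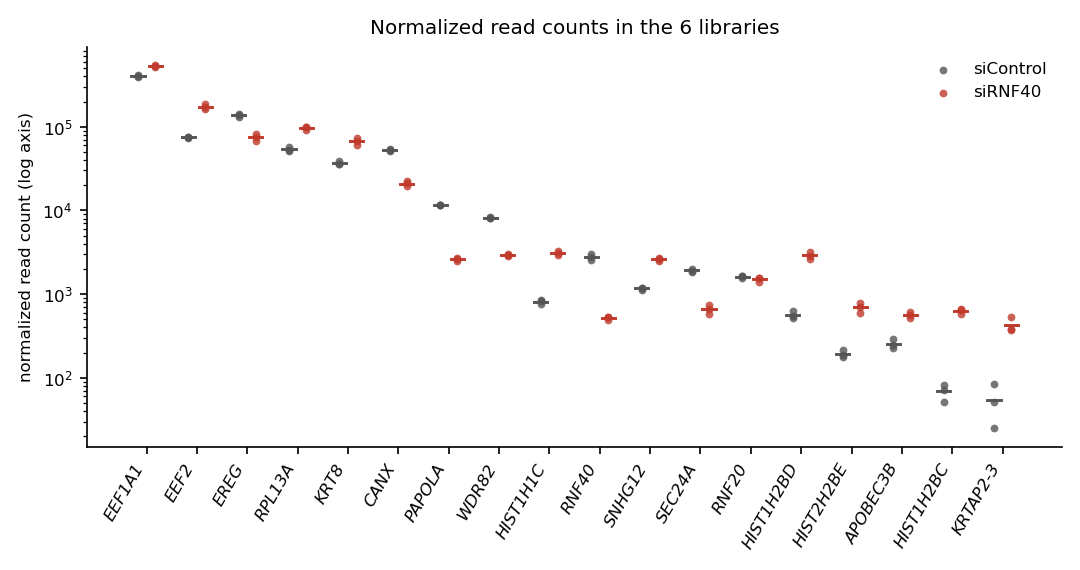
Normalized read counts of 18 genes named in the text (log axis) in the 3 siControl libraries (grey) and the 3 siRNF40 libraries (red), with a bar at each group mean. RNF40 drops to 18.7% of its control level, RNF20 overlaps between the groups, and the histone genes and KRTAP2-3 lie higher in every siRNF40 library.

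Clustered histone genes rose as a family. Of 83 deposited genes with clustered histone symbols, 27 reached the tested level, 21 of them rose and none fell, and the median log2 fold change was 1.757. The filter used the mean over all 9 libraries, so for genes low in siControl it favoured a rise. The median level of the 27 was 53.8, and 14 rose where a mean of at least 50 was required. Most such genes are expressed in S phase, and their transcripts normally end in a stem-loop without a poly(A) tail, so these libraries measure only the polyadenylated fraction. HIST1H2AC, an H2A gene, rose from 812, 730 and 768 to 3499, 4144 and 4365 (log2 fold change 2.37, SE 0.095). The linker histone gene HIST1H1C had 839, 831 and 761 counts in siControl and 3084, 2941 and 3254 in siRNF40, which is 3.82 times the control mean (1.93). HIST1H2BK rose from 988, 832 and 879 to 3101, 2949 and 3061 (1.76). Outside the chromosome 6 cluster, HIST2H2BE on chromosome 1 rose from 187, 216 and 177 to 599, 696 and 783 (1.83). No siRNF40 library overlapped the controls for these 4 genes. The 6 histone genes that were not called were all low, for example HIST2H2AC at 21, 9.49 and 7.23 against 20.4, 11.1 and 17.1. Summed over the 27 genes, the mean level went from 4342 to 17083. Among the largest losses in count were 2 histone genes outside the clusters: H1F0, a linker histone of resting cells, fell from 94118, 95324 and 93348 to 81047, 74677 and 73720 (-0.30), and H3F3B, which encodes H3.3, fell from 65234, 68572 and 64079 to 44618, 42918 and 40710 (-0.63). Copies within a histone family are similar in sequence, so the value of a single copy is less certain than the group.

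The rise extended along the chromosome. Between 26115101 and 26285762 on chromosome 6 (hg19), 9 tested genes in a row rose, from HIST1H2BC to HIST1H4H. HIST1H2BC went from 51.9, 81.6 and 72.3 to 646, 671 and 584, a 9.23-fold increase, and HIST1H2BD from 553, 625 and 512 to 2663, 2885 and 3169 (5.15-fold). Linker, H2A, H2B, H3 and H4 genes were all in the run, so it was not restricted to H2B, the histone that RNF40 modifies.

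The promoters of these genes share short motifs. RefSeq starts (build GRCh38.p14) were matched for 25 of the 27 genes, and the 250 bases before each start were searched on both strands. The CCAAT box was present in 21 (84.0%), against 33.0% of all 27305 promoters of that length. The octamer ATTTGCAT, bound by OCT1 in H2B genes, was present in 9 (36.0% against 1.66%), and TATAAA in 15 (60% against 11.1%). Among the 19 of these genes that rose, the numbers were 16, 7 and 11. Genes of the 25 that did not rise held each motif in similar proportion, so the motifs did not set apart those that rose. A match is a description of the letters and not evidence of binding. The last 100 bases before the start are shown for the 6 genes with the highest levels described here or with all the motifs, 5′ to 3′ along the gene, with CCAAT, ATTTGCAT and TATAAA on the shown strand in capitals.
HIST1H2BJ, chr6:27132796-27132895, minus strand: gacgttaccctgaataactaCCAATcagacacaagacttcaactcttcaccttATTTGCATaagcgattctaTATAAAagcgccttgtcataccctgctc
HIST1H2BK, chr6:27146859-27146958, minus strand: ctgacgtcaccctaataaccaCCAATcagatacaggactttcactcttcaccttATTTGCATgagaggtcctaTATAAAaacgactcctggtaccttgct
HIST2H2BE, chr1:149886683-149886782, minus strand: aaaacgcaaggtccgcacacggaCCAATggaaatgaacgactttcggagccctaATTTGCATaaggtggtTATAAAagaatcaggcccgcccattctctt
HIST1H2BD, chr6:26158021-26158120, plus strand: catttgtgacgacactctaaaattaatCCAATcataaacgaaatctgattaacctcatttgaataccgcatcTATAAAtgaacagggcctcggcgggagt
HIST1H2AC, chr6:26124072-26124171, plus strand: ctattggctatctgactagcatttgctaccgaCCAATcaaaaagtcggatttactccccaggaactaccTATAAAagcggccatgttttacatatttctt
HIST1H1C, chr6:26056471-26056570, minus strand: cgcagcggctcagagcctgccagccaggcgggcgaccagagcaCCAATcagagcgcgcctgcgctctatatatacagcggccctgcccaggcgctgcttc
HIST1H2BJ, HIST1H2BK and HIST2H2BE hold all 3 motifs in the same order within this window, and HIST1H2BD, HIST1H2AC and HIST1H1C rose by similar folds without the exact octamer there.

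Ribosomal protein genes rose nearly throughout. Of 85 tested genes with cytosolic ribosomal symbols 78 rose and 2 fell (median 0.632). Of the 79 core genes, a subset without the paralogs named as like genes that was set after values were seen, 74 rose and 1 fell, with a median of 0.634, and their summed level went from 1606970 to 2390290 normalized counts. Many of these genes have processed pseudogenes of near-identical sequence, so how the authors' counting split shared reads bears on single values. RPL13A, of the large subunit, had 53071, 56906 and 51762 counts in siControl and 100380, 90867 and 98687 in siRNF40 (log2 fold change 0.84). RPLP0, of the ribosomal stalk, rose from 88064, 93374 and 89190 to 138280, 131150 and 138530 (0.59). RPS2, of the small subunit, rose from 85226, 90318 and 84742 to 136780, 112100 and 123160 (0.51). In each case the lowest siRNF40 library stood above the highest control. RPS15A (0.13) and RPL26 (0.14) were not called, and their libraries overlapped. RPS15A was lowest in siRNF40 replicate 1, and without that library it was called higher (0.40).

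The 3 siRNF40 libraries differed among themselves for the shortest of these transcripts. For the 15 core ribosomal genes with a coding sequence under 350 bases, the median log2 difference from the control mean was 1.404, 0.795 and 0.433 in siRNF40 replicates 1, 2 and 3. For the 25 with at least 600 bases it was 0.539, 0.463 and 0.546. RPS27 showed this most plainly, with 23811, 11765 and 8669 counts against 6458, 6798 and 6896 in siControl, and RPL39 had 12532, 5590 and 4110 against 2939, 2763 and 2855. Other short coding genes (292 under 350 bases, mean of at least 100) had medians of 0.243, 0.203 and 0.127 in the same libraries. The short noncoding RN7SL2, a 7SL RNA of the signal recognition particle, was likewise highest in replicate 1, at 7842, 2760 and 2689 against 1023, 812 and 910. Without siRNF40 replicate 1, 75 of the 79 core ribosomal genes were called higher and 1 lower. The part of library composition in the size of the increase was not tested.

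Of 6 genes with elongation factor symbols 3 rose and 2 fell (median 0.252). EEF2, the translocase, rose from 75200, 75297 and 73549 to 169890, 162320 and 189040, which is 2.33 times the control mean (log2 fold change 1.22, SE 0.065, adjusted p = 4.4e-11 by limma). EEF1A1, which delivers aminoacyl-tRNA to the ribosome and was the gene with the largest gain in counts, rose from 390340, 412700 and 403710 to 521070, 544260 and 537660 (0.41). EEF1A1 held the second rank in every one of the 6 libraries, so quantile normalization sets its change to 0 by construction. Its tissue-restricted paralog EEF1A2 fell from 9643, 10292 and 9102 to 6620, 6402 and 8127 (-0.46). EEF1E1, whose product belongs to the aminoacyl-tRNA synthetase complex, fell from 401, 469 and 405 to 253, 309 and 287 (-0.59), a call that ended after GC correction (-0.27). EEF1D rose (0.43) and EEF1B2 (0.10) was not called.

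Among 55 genes with translation initiation factor (EIF) symbols, not all of which need encode such factors, 32 rose and 8 fell, with a median of 0.321. EIF5A (from 11596, 12230 and 11371 to 23738, 21030 and 22784, log2 fold change 0.94) and EIF4B, a helper of the RNA helicase eIF4A (from 18722, 19216 and 19223 to 31589, 32000 and 30964, 0.73), were tightly reproduced. Of 13 subunits of eIF3, the largest initiation factor, 10 rose and 2 fell. The exceptions were the scaffold subunit EIF3A (18922, 19402 and 19441 to 14531, 15164 and 13018, -0.44) and EIF3L (-0.22). EIF3C had the steepest rise (1.38), but it has a near-identical copy, EIF3CL, and its value is uncertain. EIF6, which keeps the large ribosomal subunit from joining the small one too early, fell from 3899, 4031 and 3995 to 1609, 1319 and 1412 (-1.46). NPM1, a nucleolar chaperone of ribosome assembly, rose from 45430, 47089 and 45374 to 86709, 85034 and 80646 (0.87). Aminoacyl-tRNA synthetases were mixed, with 17 of 37 higher and 6 lower.

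Transcripts of ribosomal proteins and elongation factors typically begin with a C followed by a run of pyrimidines, the 5′ terminal oligopyrimidine tract, through which their translation is tied to growth signalling. A C followed by 4 letters C or T stood at the RefSeq start of 44 of 64 matched core ribosomal genes (68.8%), 12 of 52 genes with elongation or initiation factor symbols (23.1%) and 574 of 10953 matched coding genes (5.24%). Windows of 30 bases, 15 before and 15 from the start, are shown for 8 genes picked because they have the tract, and for SNHG7, whose run of 4 letters falls short of the rule. Capitals mark the unbroken run of C and T from the start.
EEF2, chr19:3985449-3985478, minus strand: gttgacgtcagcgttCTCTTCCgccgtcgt
EEF1A1, chr6:73521018-73521047, minus strand: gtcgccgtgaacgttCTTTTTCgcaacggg
RPL13A, chr19:49487593-49487622, plus strand: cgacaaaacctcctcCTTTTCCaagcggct
RPLP0, chr12:120201097-120201126, minus strand: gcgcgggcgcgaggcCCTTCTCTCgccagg
RPS27, chr1:153990747-153990776, plus strand: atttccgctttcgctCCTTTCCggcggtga
RPL39, chrX:119791616-119791645, minus strand: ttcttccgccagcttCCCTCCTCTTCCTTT
NPM1, chr5:171387834-171387863, plus strand: cggggagcctgcgtcCTTTCCCTggtgtga
SNHG12, chr1:28581859-28581888, minus strand: tcgcggcttcagcgcCCTTTCTCCCCgccg
SNHG7, chr9:136728170-136728199, minus strand: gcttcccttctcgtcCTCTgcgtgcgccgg
Outside the ribosomal proteins, 33.2% of the 530 coding genes with these start letters rose and 26.6% fell (median 0.047), against 23.4% and 29.5% of the 10359 without them (median -0.029). Within the ribosomal proteins the letters made little difference to the count: 97.7% of the 44 with them and 100% of the 20 without them rose, with medians of 0.67 and 0.513. Each gene was judged by a single annotated start, which may be inexact, and nearly all of these genes rose. This split therefore cannot say whether the tract matters.

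The host genes of small nucleolar RNAs (SNHG), whose spliced transcripts are noncoding and often begin with such a tract, were all above 0. Of 13 tested, 9 rose and none fell (median 0.655, against 21.7% of all genes called higher). SNHG7 rose from 1312, 1300 and 1292 to 3142, 3258 and 3541 (log2 fold change 1.35), and SNHG12 from 1121, 1194 and 1196 to 2663, 2471 and 2730 (1.16). SNHG1, the most abundant of those named, rose from 10809, 11376 and 11038 to 16566, 17347 and 18424 (0.65). Among 49 small nucleolar RNAs themselves 7 rose and none fell (median 0.564), at low levels, since a poly(A) library captures them poorly.

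Mitochondrial translation and respiration moved the same way with smaller changes. Of 75 mitochondrial ribosomal protein genes 37 rose and 2 fell, with a median of 0.253. MRPS10 fell from 4290, 4760 and 4807 to 3037, 3318 and 2952 (-0.57). The MRPL35 call (-0.23) ended without siControl replicate 3 (-0.18) or siRNF40 replicate 2 (-0.20) and after GC correction (-0.01). Of 46 NDUF genes, for the subunits and assembly factors of complex I, the first enzyme of the respiratory chain, 28 rose and 2 fell (median 0.436). Among the 39 that encode subunits, a subset set after values were seen, 26 rose and 1 fell (median 0.512). NDUFV1, of the catalytic arm, rose from 2561, 2676 and 2756 to 4706, 4631 and 5009 (0.84), and NDUFB10 from 1389, 1464 and 1365 to 2793, 2362 and 2727 (0.90). NDUFC2 fell from 118, 169 and 128 to 55.1, 86 and 64 (-1.01), and the assembly factor NDUFAF3 fell from 557, 546 and 555 to 385, 305 and 295 (-0.76). Of 23 genes with the COX stem 13 rose and 3 fell (median 0.404). This stem was picked because its median was among the highest of 87 ranked stems. COX6B1, a subunit of cytochrome c oxidase, rose from 1016, 1028 and 848 to 2161, 1837 and 1748 (0.99), whereas the 3 that fell, COX15 (-0.45), COX18 (-0.33) and COX11 (-0.28), encode assembly factors and no subunits. The COX18 call ended without any 1 of siControl replicates 1, 2 and 3 and siRNF40 replicates 2 and 3 (-0.28 to -0.36), and the COX11 call after GC correction (-0.04). The subunit genes were also higher in replicate 1: the complex I medians were 0.625, 0.452 and 0.378 in siRNF40 replicates 1, 2 and 3.

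Of 23 small nuclear ribonucleoprotein and LSM genes, which encode the protein rings of the spliceosome and of mRNA decay, 13 rose and 2 fell. LSM7 rose from 1165, 1219 and 1100 to 2111, 2069 and 2098 (log2 fold change 0.85), while LSM1, the subunit particular to the cytoplasmic decay ring, fell from 797, 653 and 695 to 216, 237 and 231 (-1.64). Of 29 RNA polymerase subunit genes 12 rose and 6 fell. POLR3D of polymerase III rose from 1772, 2006 and 2067 to 4250, 4108 and 3898 (1.07), and POLR2K, shared by all 3 nuclear polymerases, fell from 1490, 1532 and 1502 to 508, 675 and 540 (-1.40).

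**Figure D2:**
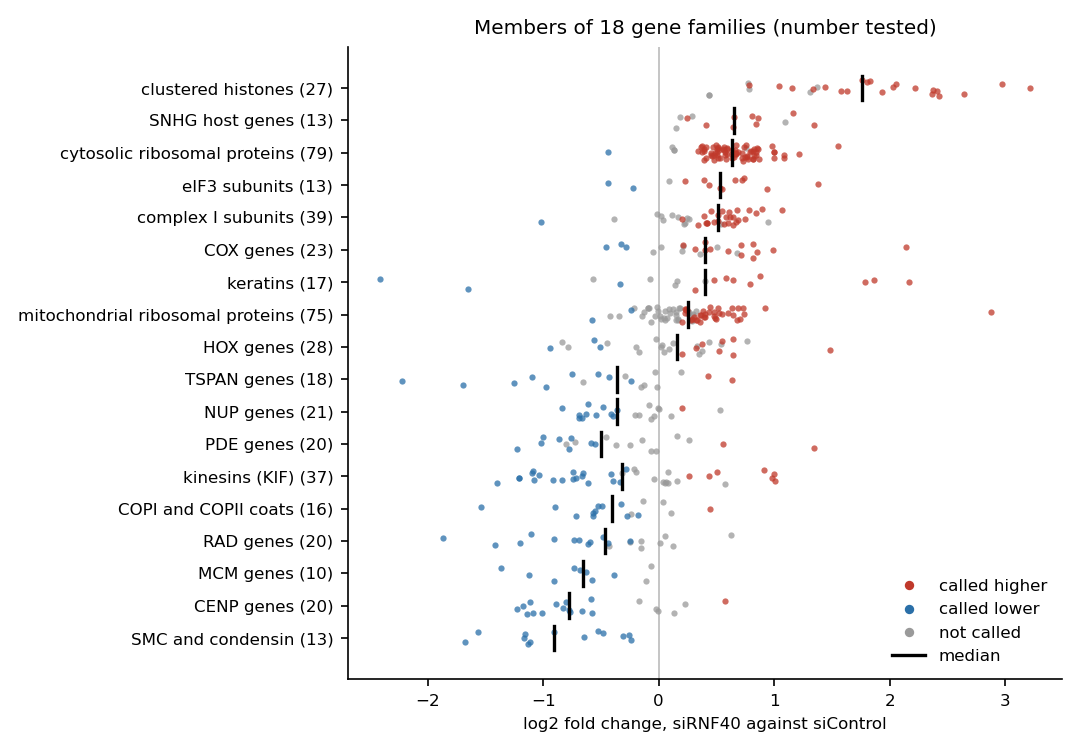
Log2 fold changes of the members of 18 gene families (red called higher, blue called lower, grey not called), with the family median as a black bar and the number of tested genes in parentheses. Clustered histones lie highest with a median of 1.757, and the SMC and condensin genes lowest with a median of -0.907. The COX, TSPAN, NUP, PDE and RAD genes are shown because their symbol stems had extreme medians.

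Several families of genes that organise and separate chromosomes fell. All 13 tested SMC and condensin genes fell, with a median of -0.907. Condensins compact chromosomes for mitosis, and the related cohesin holds sister chromatids together. NCAPG2 of condensin II fell from 3755, 3766 and 4075 to 1314, 1395 and 1212 (log2 fold change -1.56, SE 0.074). The condensin core subunit SMC4 fell from 6877, 6662 and 7521 to 3142, 3474 and 2782 (-1.17), and NCAPG from 6676, 6362 and 6104 to 2949, 2894 and 2883 (-1.13). Both condensin I and condensin II subunits were included. The cohesin subunit SMC3 had a smaller decrease (-0.31), which was not called after correction for GC content (-0.04).

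Of 20 centromere protein (CENP) genes 14 fell and 1 rose (median -0.775). CENPK fell from 924, 971 and 1031 to 395, 405 and 453 (log2 fold change -1.22). CENPA, the histone H3 variant that marks centromeres, fell from 760, 833 and 754 to 405, 309 and 378 (-1.11), in the direction opposite to that of the clustered histones. Without siRNF40 replicate 2 a second CENP gene was called higher. CENPV, the one that rose, went from 600, 569 and 510 to 872, 803 and 820 (0.57). Of 10 genes with MCM symbols, most of which encode the replicative helicase and its relatives, 8 fell and none rose. MCM8 of recombination repair fell from 1214, 1390 and 1268 to 505, 499 and 491 (-1.37), and MCM2 from 1767, 1778 and 1803 to 887, 954 and 1013 (-0.91).

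Among 37 kinesin genes 19 fell and 7 rose (median -0.318). Those that fell most have roles in the spindle: KIF4A went from 2287, 2203 and 2156 to 706, 996 and 843 (log2 fold change -1.40) and KIF18A from 2022, 2124 and 2096 to 943, 1045 and 938 (-1.09). Of 20 genes with the RAD stem 12 fell and none rose (median -0.462). The RAD and NUP stems were picked because their medians were among the lowest of 87 ranked stems. Their low medians therefore follow from the choice. The cohesin subunit RAD21 fell from 12860, 12271 and 12452 to 6657, 7432 and 6008 (-0.91). Nuclear pore genes with the NUP stem numbered 21, with 11 lower and NUP188 alone higher (median -0.357). The NUP188 call (0.20) was lost without siControl replicate 1 (0.17) or siRNF40 replicate 3 (0.15), with equal library totals (0.17) and after GC correction (0.07). NUP155 fell from 3831, 3979 and 4207 to 2321, 2461 and 1955 (-0.84). The TUBA1B tubulin gene fell from 7155, 6736 and 6607 to 3514, 3385 and 3450 (-0.99). Of 30 centrosomal CEP genes 16 were lower and 1, CEP170B, higher.

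Genes of the early secretory pathway were a second group of decreases. COPII coats carry cargo out of the endoplasmic reticulum and COPI coats carry it back, and of 16 coat subunit genes 11 fell and 1 rose (median -0.407). SEC24A, a cargo adaptor of COPII, fell from 2007, 1846 and 1894 to 665, 748 and 575 (log2 fold change -1.54), and SEC23B, its partner in the inner coat, fell from 7165, 7402 and 7385 to 3831, 4209 and 3787 (-0.89). COPA of the COPI coat fell from 9611, 9607 and 9880 to 6750, 6754 and 6707 (-0.53). SEC31B rose from 468, 475 and 538 to 692, 631 and 690 (0.44), unlike its paralog SEC31A (-0.57). SEC61A1, the channel through which proteins enter the reticulum, fell from 12712, 12679 and 12236 to 7909, 8453 and 8761 (-0.58).

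Folding factors of the reticulum fell with them. CANX, the lectin chaperone calnexin, had 52584, 51813 and 54243 counts in siControl and 21113, 22246 and 19376 in siRNF40, a drop to 39.5% of the control level (log2 fold change -1.34, SE 0.063). Of 12 protein disulfide isomerase genes 10 fell and 1 rose (median -0.393). P4HB fell from 31625, 32756 and 31055 to 21497, 21375 and 23446 (-0.53), and TXNDC5, the exception, rose from 390, 282 and 366 to 814, 572 and 623 (0.95). Of 16 serpin genes 11 fell and 1 rose. SERPINH1, the collagen chaperone HSP47, fell from 4943, 4946 and 4631 to 2086, 1736 and 1875 (-1.35), and SERPINB5, or maspin, rose from 1872, 1768 and 1858 to 3114, 3154 and 3077 (0.77). Of 18 tetraspanins, whose symbol stem was picked for its low median, 9 fell and 2 rose, or 1 without siControl replicate 1 or siRNF40 replicate 2. TSPAN1 fell from 246, 308 and 316 to 62.2, 52.7 and 69.4 (-2.22).

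Keratin genes, taken by symbol, split by chromosome. Of the 7 keratins on chromosome 12, which are type II except for KRT18, 6 rose and none fell (median 0.79), and of the 10 on chromosome 17, 3 rose and 3 fell (median 0.034). This grouping was made after the values were seen. After GC correction 4 of the 7 on chromosome 12 were called higher (median 0.591). On chromosome 17 there were then 3 higher and 3 lower (median -0.057). KRT8 rose from 35918, 39061 and 35448 to 60985, 68338 and 73873 (log2 fold change 0.88) and its type I partner KRT18 from 10589, 11410 and 10079 to 14813, 15670 and 17487 (0.58). KRT80 rose from 637, 629 and 613 to 2015, 2036 and 2468 (1.79). On chromosome 17, KRT19 rose from 29000, 30366 and 27146 to 35692, 38716 and 46802 (0.48), KRT15 fell (-0.33), and KRT222 fell from 92.8, 48.4 and 67.1 to 13.3, 12.9 and 9.61 (-2.41).

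Runs of at least 6 tested neighbours called in the same direction numbered 23, of which 8 were higher and 15 lower. A gene next to one that rose had itself risen in 27.4% of cases, against 21.7% of all genes, and the gene after one that fell had fallen in 29.6%, against 23.6%. Between 39078948 and 39538655 on chromosome 17 (hg19), KRT23, 4 keratin-associated protein loci and KRT34 rose in a row. Of these 6, KRTAP3-1, KRTAP2-4 and KRT34 had control means under 10 and reached the tested level only through the other libraries, so for them the filter itself favoured a rise, and at a mean of at least 50 KRT23 and KRTAP2-3 alone are tested. These hair keratin partners are nearly silent in colon cells. KRTAP2-3 went from 85, 51.2 and 24.8 to 385, 371 and 536, and KRTAP3-1 from 6.63, 3.8 and 5.17 to 74.4, 105 and 87.5 (17.2 times the control mean). At such low counts the log2 fold change depends on the pseudocount, and for KRTAP3-1 it was 3.87 with 1 and 2.698 with 10. The siRNF40 libraries of both genes stood clear of the controls. KRT34, at the end of the run and at low counts (8.83, 3.8 and 9.3 to 33.7, 30.5 and 39.5, log2 fold change 2.17), lost its call without siControl replicate 2 or any 1 siRNF40 library (1.81 to 2.25). The KRTAP2-4 call (1.93) ended without siControl replicate 1 or 3 or siRNF40 replicate 2 or 3 (1.37 to 2.02), so the run is uncertain at these loci.

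On chromosome 22 (39378352 to 39548679, hg19), the 5 tested APOBEC3 genes, which encode cytidine deaminases that restrict retroviruses, and their neighbour CBX7 rose in a row. APOBEC3B went from 244, 230 and 287 to 570, 619 and 512 (log2 fold change 1.16) and APOBEC3D from 80.6, 75.9 and 58.9 to 214, 169 and 196 (1.42), while the most abundant member, APOBEC3C, changed least (1745, 1576 and 1762 to 1810, 2118 and 2003, 0.22). The APOBEC3C call ended without siControl replicate 2 (0.17) or siRNF40 replicate 2 (0.17) or 3 (0.21), and without siControl replicate 2 only 3 of the 5 were called. Neighbouring paralogs share sequence, so reads may have been split among them. CBX7, a Polycomb reader, rose from 805, 871 and 821 to 1819, 1383 and 1457 (0.89). A further run on the same chromosome, from RPL3 to RPS19BP1, held the stress response factor ATF4, which rose from 18200, 19434 and 18570 to 28680, 25604 and 27611 (0.54). The longest run of decreases held 10 genes on chromosome 8, from GDAP1 to HEY1 over 5.4 Mb, among them PKIA, an inhibitor of protein kinase A (125, 158 and 146 to 53, 40.7 and 49.1, -1.56).

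**Figure D3:**
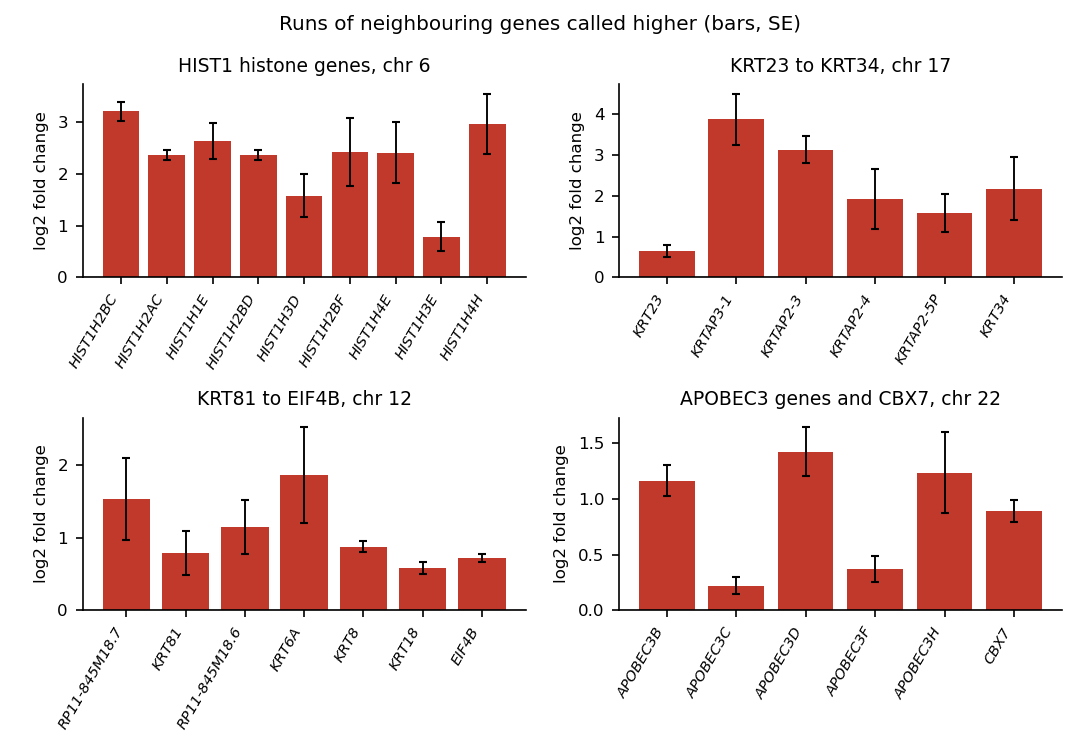
Log2 fold changes with limma's SE for the genes of 4 runs of neighbours that rose, in chromosome order. All bars are above 0, from 0.22 for APOBEC3C to 3.87 for KRTAP3-1.

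The transcripts with the steepest decreases often share a short word in the 3′ untranslated region (UTR). GTCTTCA had been picked earlier because, of all 7-base words, it marked the genes that fell here best, so what follows describes the size and spread of that relation and tests nothing. Of 12850 coding genes whose 3′ UTR in GENCODE 29 is 50 bases or longer, 1589 (12.4%) hold it. The median log2 fold change was 0.016 for the 11261 genes without the word, -0.343 for 1322 with 1 occurrence, -0.468 for 203 with 2 and -0.445 for 64 with 3 or more. The share called lower was 25.7%, 52.3%, 63.5% and 64.1% in the same order. Genes with the word have longer 3′ UTRs. Among the shortest UTRs, where 90 genes hold it, 53.3% fell and 19.9% of the rest did, and among the longest the shares were 53.7% and 33.4%. The 1802 genes with the word only in the coding sequence had a median of -0.254. Coding length was not matched for them, and the longest of 6 bins of transcript length had a median of -0.189. After GC correction the medians were 0.011 without the word and -0.26, -0.397 and -0.294 with 1, 2 and 3 or more. For the word only in the coding sequence it was then -0.229.

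Of the 30 largest decreases at a mean of at least 100, 29 could be searched and 20 (69.0%) hold the word, and none of the 22 searched among the 30 largest increases does. PAPOLA, the poly(A) polymerase that adds tails to mRNA, holds it 3 times and had 11528, 11499 and 11695 counts in siControl and 2632, 2678 and 2516 in siRNF40, or 22.5% of the control level (-2.15). ME2, a mitochondrial malic enzyme, holds it 4 times and fell from 3263, 3435 and 3388 to 642, 812 and 643 (-2.27). RAB6A, a GTPase of the Golgi, fell from 6806, 7062 and 6595 to 1487, 1726 and 1607 (-2.09), UGDH, which makes the sugar of glycosaminoglycans, from 3074, 3008 and 2988 to 652, 689 and 518 (-2.30), and DESI2 from 4735, 4873 and 4846 to 1027, 1253 and 1137 (-2.08). All 3 hold it 1 time. WDR82, CANX, SEC24A and LSM1, named above with their families, hold it as well, and so does RNF40. The chromatin remodeller SMARCA5 (2 occurrences) fell from 6790, 6965 and 7340 to 2366, 2530 and 2287 (-1.55). Windows of 30 bases with the word in capitals are shown for 8 of these genes (GENCODE 29), with the position of its first base after the stop codon.
RNF40, chromosome 16, position 2159 of a 2193-base 3′ UTR: tctcctcgtggGTCTTCAtacctaataaaa
PAPOLA, chromosome 14, position 48 of 2061: ctcaacctgttGTCTTCAaatgctaaaaaa
PAPOLA, position 462: ctttaccattaGTCTTCAaattggatactg
PAPOLA, position 768: ttcaatctgttGTCTTCAaaacaaacaaac
WDR82, chromosome 3, position 179 of 3069: ctttgatgagcGTCTTCAaaaggactcttg
WDR82, position 953: ttgtgtacataGTCTTCAgatgataccacc
CANX, chromosome 5, position 841 of 2281: ccggaatagatGTCTTCAtcacttcttcca
SEC24A, chromosome 5, position 740 of 2729: gaatttgagctGTCTTCAtaaacactggga
RAB6A, chromosome 11, position 184 of 2260: caaaagtcagtGTCTTCAttatttatattt
UGDH, chromosome 4, position 668 of 1388: agggaaggacaGTCTTCAttcctcctggtt
DESI2, chromosome 1, position 346 of 3244: aaaatcttcatGTCTTCAaaaattaggcag
The bases around the word differ from site to site. Without the genes that hold it, several families kept their counts: none of the 13 SMC and condensin genes and none of the 37 kinesins does, the CENP median was -0.779 over 19 genes, and 70 of 74 core ribosomal genes rose and none fell. Other families had fewer decreases without them, and so did all coding genes, from 3867 lower of 13678 to 3006 of 12089. The word was picked from these fold changes, so leaving out its holders lowers such counts by construction. The counts therefore do not mark any family as dependent on the word. The SWI/SNF genes went from 3 higher and 9 lower of 16 (median -0.269) to 3 and 6 of 13 (median -0.002), and the H2B ubiquitin list from 6 and 14 of 40 (median -0.126) to 6 and 11 of 35 (median -0.056). The number lower went from 14 of 51 to 7 of 40 for TRIM genes, from 25 of 70 to 14 of 51 for RNF genes, from 19 of 47 to 12 of 38 for USP genes, from 19 of 62 to 12 of 52 for RAB genes, from 6 of 26 to 3 of 22 for KLHL genes and from 91 of 378 to 56 of 308 for ZNF genes. With the holders included, 27.5% of TRIM, 30.6% of RAB, 23.1% of KLHL and 24.1% of ZNF genes were lower. These shares were near the 28.3% of all coding genes, while those of RNF (35.7%) and USP genes (40.4%) were above it.

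**Figure D4:**
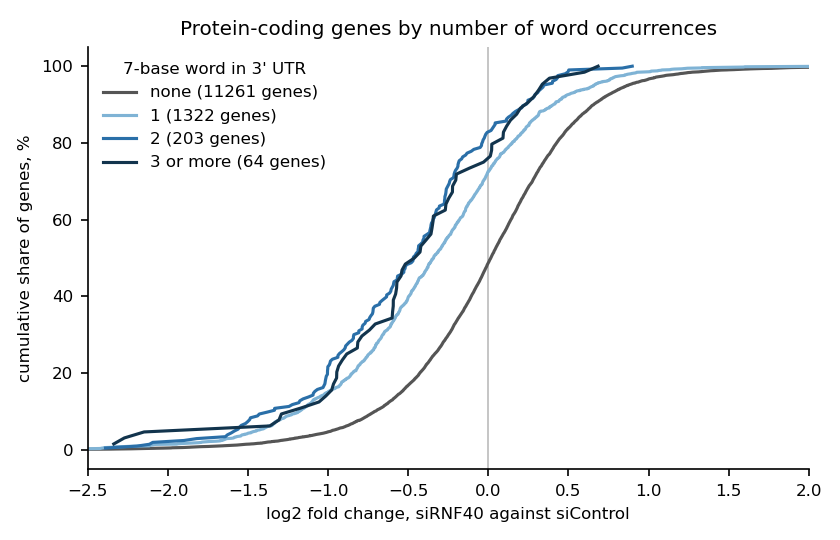
Cumulative share of protein-coding genes (vertical axis, %) by log2 fold change, for genes with 0, 1, 2 and 3 or more occurrences of the 7-base word in the 3′ UTR, with the horizontal axis limited to -2.5 to 2. The curves of genes with the word lie to the left of the grey curve of the 11261 genes without it, with medians of -0.343, -0.468 and -0.445 against 0.016.

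Steep decreases without the word in the 3′ UTR also occurred. BRIP1, a helicase of DNA crosslink repair, fell from 1304, 1339 and 1413 to 366, 377 and 289 (log2 fold change -1.98). The imprinted PEG10 fell from 631, 607 and 569 to 144, 191 and 95 (-2.12) and LIN28A, a repressor of let-7 microRNA maturation, from 159, 147 and 138 to 31.6, 43.5 and 23.5 (-2.18). RNF5, another RING-type ligase, fell from 1757, 1578 and 1598 to 394, 462 and 464 (-1.90), with its pseudogene RNF5P1 (-2.01), whose sequence is near-identical and may take some of its reads. ITGAX, which encodes an integrin of myeloid cells and lies on chromosome 16 like RNF40, fell from 70.7, 57.9 and 75.4 to 6.12, 17.6 and 5.34 (-2.86).

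In absolute counts the largest losses fell on abundant transcripts. EREG, the EGF receptor ligand epiregulin, had 136480, 131660 and 141320 counts in siControl and 76010, 82722 and 67004 in siRNF40 (log2 fold change -0.86). SLC7A5, the large neutral amino acid transporter LAT1, fell from 51887, 52363 and 50754 to 26284, 25176 and 27310 (-0.98), and integrin alpha 3 (ITGA3) from 47046, 48160 and 44656 to 31416, 28168 and 32249 (-0.61). After the translation factors, ANXA2 (46363, 49019 and 47147 to 87429, 87902 and 89899, 0.90) and GAPDH (57312, 60369 and 56064 to 93614, 81260 and 96708, 0.64) were among the 10 largest gains. Further increases at lower levels were those of the carboxypeptidase CPA4 (1828, 1928 and 1728 to 5711, 5860 and 6133, 1.69), EID3 (174, 148 and 120 to 492, 466 and 588, 1.81), ZNF506 (44.2, 60.7 and 60.9 to 188, 202 and 210, 1.85) and the small heat shock protein HSPB8 (108, 88.3 and 116 to 317, 296 and 352, 1.62). Transcripts that went from a control mean under 5 to at least 30 were TMEM236 (3.31, 3.8 and 1.03 to 29.6, 40.7 and 23.5), PLK5 (2.21, 5.69 and 4.13 to 32.6, 18.5 and 43.8) and the lincRNA CTC-296K1.3.

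Several noncoding transcript types leaned to the higher side. At a mean of at least 100, where the depth supports calls, 34.2% of 237 lincRNAs rose and 15.6% fell, 33.8% and 17.1% of 210 antisense RNAs, and 41.1% and 18.9% of 95 processed transcripts, against 27.0% and 31.7% of 11386 coding genes. Of 270 pseudogenes at this level 22.6% rose, a smaller share than of coding genes, and 11.5% fell. The sense-overlapping type was taken at a mean of at least 10. Of its 76 genes 4 (5.26%) were higher and 13 (17.1%) lower, with a median of -0.129. Both shares were below those of all genes at that level, 21.7% and 23.6%. After GC correction its median was 0.083, with 4 higher and 8 lower of 63. Whether counting used strand is not given in the sources used here, so reads of an antisense gene and its overlapping coding gene may be mixed. Of 193 called antisense RNAs that overlap a tested coding gene, 81 changed in the same direction as the partner, 34 in the opposite direction, and 78 had an uncalled partner. LINC01021 rose from 115, 94.9 and 146 to 397, 420 and 308 (log2 fold change 1.66), MIR17HG, the host of the miR-17 cluster, from 90.6, 109 and 114 to 190, 235 and 210 (1.01), and MKLN1-AS from 102, 110 and 94 to 278, 367 and 265 (1.55). AC104389.28 on chromosome 11 rose from 687, 821 and 734 to 2872, 3432 and 3295 (2.10) together with the overlapping olfactory receptor gene OR51B5 (108, 65.5 and 98.1 to 447, 339 and 397, 2.13), and the reads of the pair cannot be told apart.

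Chromosomes differed modestly in their median, and the base composition of the transcripts moved with it. The median of coding genes ran from -0.226 on chromosome 13, where 15.5% rose and 46.8% fell, to 0.195 on chromosome 19, where 37.1% rose and 12.2% fell. On chromosome 19, 342 of the 837 genes other than zinc finger (ZNF) genes rose and 91 fell (median 0.259), and of its 158 ZNF genes 27 rose and 30 fell (median -0.021). With the 13478 coding genes split into 6 equal bins of transcript GC content, the median rose from -0.288 in the lowest bin (31.3 to 40.9% GC), where 50.2% fell, to 0.23 in the highest (60.3 to 74.6%), where 37.7% rose. After each library was corrected for GC content, an alternative added after seeing the data, the chromosome medians ran only from -0.156 to 0.073, and the non-ZNF genes of chromosome 19 had a median of 0.072 with 238 higher and 164 lower. The ZNF genes of chromosome 19 then had a median of 0.073 with 30 higher and 18 lower.

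The GC trend differed in size between the siRNF40 libraries. The highest bin exceeded the lowest by 0.496, 0.303 and 0.748 in siRNF40 replicates 1, 2 and 3, and by -0.003, 0.076 and -0.075 in the controls, over 11285 coding genes with a mean of at least 100. The direction was thus the same in all 3 siRNF40 libraries, with replicate 3 the steepest, and whether it arose in the cells or in library preparation was not tested. Counts of several families changed little after the correction: 72 of 78 core ribosomal genes rose (median 0.612), 15 of the 19 histone genes with a GC value rose (median 1.584; 21 of 27 before), 24 of 39 complex I subunits rose, 15 of 20 CENP genes fell (median -0.584), 11 of 13 SMC and condensin genes fell (median -0.776) and 10 of 16 coat subunits fell. HOX genes went from 8 higher and 3 lower of 28 to 4 and 4, ZNF genes from 56 and 91 of 378 to 76 and 71 of 373, and keratins from 9 to 7 higher of 17. Among named genes, SMC3, COX11, MRPL35, CTR9, PAF1, NUP188, EEF1E1 and KRTAP2-4 lost their calls.

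**Figure D5:**
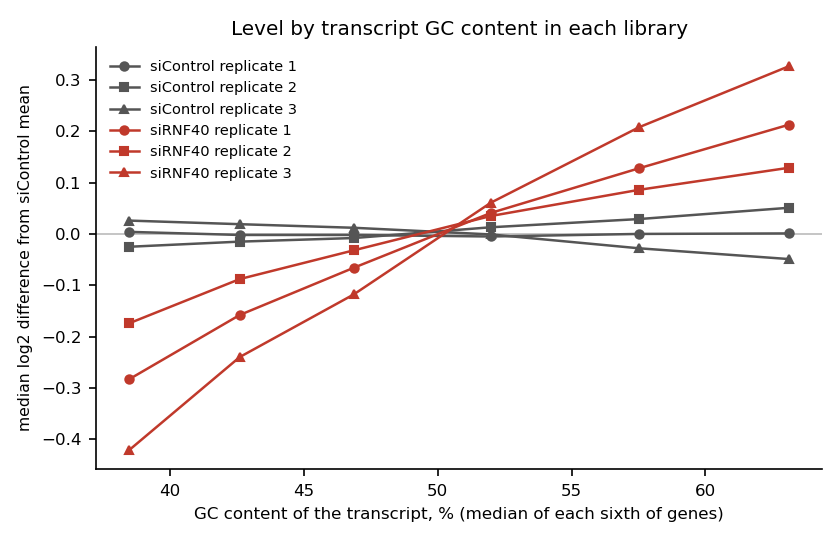
Median log2 difference from the siControl mean in 6 bins of transcript GC content (horizontal axis, median GC of each bin in %), for each library over 11285 coding genes. The 3 siRNF40 lines rise from -0.421 to -0.174 in the lowest bin to 0.129 to 0.327 in the highest, and the siControl lines stay between -0.049 and 0.051.

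Length and GC content were related but not interchangeable. Among genes with low GC the median was -0.075 for short and -0.295 for long genomic spans, and among genes with high GC it was 0.214 and 0.055. Across 13478 coding genes, Spearman's rho with the log2 fold change was 0.326 for GC content and -0.241 for genomic span. After GC correction it was -0.135 for span, and 0.0278 for GC content, which is small by construction. These are descriptions across genes of the same libraries, and genes are not independent replicates.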

How the data were processed

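The members, gene families and naming rules were chosen with earlier results of these data known. Per the submitters' processing notes, the tools were Trim Galore 0.4.1 (trimming), STAR 2.7.0 (alignment), HTSeq 0.12.4 (gene counts) and DESeq2, with hg19 and hg38 both named as builds. Coordinates in the deposited tables are hg19. The strand setting of counting is not given in the sources used here. The deposited expression table holds a signal, read counts divided by a size factor, and 100% of its values lay within 0.001 of a whole read. Columns marked NC, the only ones named for neither target, were taken as siControl, the group that the deposited comparison tables set against each target under the name siNC, and their means equal those tables' siNC means. Those tables, deposited by the authors, also hold log2 fold changes, a test score and p-values, which are not printed here.

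Genes with a mean of at least 10 over 9 libraries (17663 of 63677) were tested two-sided with limma 3.58.1 (R 4.3.3, intensity trend) on log2(value + 1), with 3 group means in a single fit of all 9 libraries and Benjamini-Hochberg adjustment. SE is limma's. The fit was tested on simulated data. Families were defined by symbol, except that the core ribosomal, elongation factor, eIF3, complex I subunit, APOBEC3 and keratin-by-chromosome subsets were set after values were seen. All 87 symbol stems with at least 15 tested coding genes were ranked by median log2 fold change. Those with the highest and lowest medians were picked, so their medians are extreme by construction. Named genes are RNF40 and RNF20, the 30 largest increases and decreases at a mean of at least 100 without overlap, the 10 largest gains and losses in count, genes crossing from under 5 to at least 30, up to 5 called and 2 uncalled members of a family at a mean of at least 50, and the genes of runs and of the H2B list. EIF3A, EIF3L, MRPS10, MRPL35, COX15, COX18, NDUFAF3, SEC31B, CENPV, SNHG1, SMC3, HIST2H2AC, COX11, EEF1E1, RPS27, RPL39 and other exceptions or low members named beside a family were chosen after their values were seen. Transcript features came from GENCODE 29 by gene ID (17114 of 17663 genes), and starts and promoters from RefSeq GRCh38.p14 (10953 of 13678 coding genes). Alternatives were edgeR 4.0.16 and DESeq2 1.42.0 on the recovered counts, other scalings, filters and pseudocounts, left-out libraries, a replicate block and a GC correction in 50 bins.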

Additional observations from a re-analysis of the deposited data

How the results depend on the processing

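Over the 20 alternatives the calls over all genes numbered 3332 to 4076 higher and 3632 to 4451 lower, against 3825 and 4175. Leaving out 1 library gave 3332 to 3892 and 3632 to 4181. Scaling decided the balance most: 51.1% of calls were higher under quantile normalization and 44% with equal library totals, against 47.8%. Counts by edgeR with TMM (3718 and 4208) and DESeq2 (4033 and 4174) were close to these. Same-numbered libraries of the 2 groups did not deviate together (r of 0.0269, -0.0291 and -0.0653 for replicates 1, 2 and 3), and not every library correlated best with its own number. Values this small do not show that the libraries were unpaired, and the main fit used no pairs. With the replicate number as a block, 3693 genes were called higher and 4042 lower, and RNF40 had a log2 fold change of -2.42. Of 2869 values of named genes under alternatives, 2809 kept their direction and side of the threshold, 56 kept the direction and lost the call, 4 gained it and none reversed. The count of called clustered histones ranged from 14 to 22 and that of core ribosomal genes called higher from 67 to 75. The histone count was lowest where only genes with a mean of at least 50 were tested, since fewer genes enter there. Depth limits genes of low level: of coding genes with a mean of 10 to 100, 10.1% were called higher and 11.4% lower, against 27.0% and 31.7% at 100 and over.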
